A study of Mus musculus with 50 samples.

Results

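Type I interferon-stimulated genes were followed in sorted hippocampal microglia of mice. The set held 44 genes named by symbol, which were matched to the gene symbols of the 53700 genes counted in each library. All 44 were found, and 42 of them passed the filter on low counts that 16696 genes passed in all. Counting in each of 50 mice gave 1 library per mouse.

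The mice were male C57BL/6J. Early-life stress (ELS) was limited bedding and nesting material given to dam and pups between P2 and P9, and control (CTR) mice kept standard material. Mice were taken at P9 without injection, or at P200 at 3 h after an intraperitoneal injection of PBS or of lipopolysaccharide (LPS, a cell wall component of Gram-negative bacteria) at 1 mg/kg. At P9 there were 12 CTR and 13 ELS pups. Of the adults, 7 CTR and 6 ELS mice had received PBS (P200-CTR-PBS and P200-ELS-PBS), and 7 CTR and 5 ELS mice LPS (P200-CTR-LPS and P200-ELS-LPS). Cells were sorted as CD45 intermediate and CD11b+, after myelin removal on Percoll at P200 and without it at P9, so that age and preparation cannot be told apart. The labels give each mouse a nest and a number within it. At each age a nest held a single rearing condition, and several mice shared a nest, so that p-values measure the spread between mice that are not all from separate nests.

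Type I interferons, mainly the IFN-alpha proteins and IFN-beta, bind the receptor IFNAR1/IFNAR2, whose kinases JAK1 and TYK2 act on the transcription factor complex ISGF3. That complex contains STAT2 and IRF9 and binds the interferon-stimulated response element (ISRE) in the promoters of antiviral genes. Interferon signalling also acts through a different sequence, the gamma-activated site (GAS). In macrophages and microglia, LPS is sensed by TLR4 with CD14 and MD-2, and the TRIF arm of that receptor leads through TBK1 and IRF3 to transcription of IFN-beta. The genes of the set encode proteins that bind viral RNA, degrade RNA, hold virus at membranes, sense nucleic acids, or modify other proteins with ISG15 or ADP-ribose.

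Library totals lay between 5152838 and 42231258 counted reads. The summed level of 8 microglial markers, among them P2ry12 and Tmem119, lay between 35700 and 81100 CPM (reads relative to the library total, scaled by the trimmed mean of M-values) over the 50 mice. Neutrophil markers summed to at most 4.83 CPM and lymphocyte and NK cell markers to at most 1.42 CPM in any mouse. Monocyte markers summed to at most 11 CPM. In 3 libraries few genes were detected, namely 12854 in P200-CTR-PBS mouse 1 of nest 1, and 15731 and 12482 in P9-ELS mice 2 and 3 of nest 19, against 16485 to 21100 in the other 47. Where the call or the printed direction of a member below changed without these 3 libraries, the value without them stands beside it. The numbers of members called without them stand in the closing section on processing. In bulk RNA of sorted cells, fewer cells that express a gene and less RNA per cell cannot be told apart.

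Promoter sequences show what the members share at the level of DNA. RefSeq gave 300 bases (250 before the transcription start and 50 from it on, build GRCm38.p6) for 32 of the 44 members. Both strands were searched for the core of the ISRE, GAAANNGAAA, and that of the GAS, TTCNNNGAA. The ISRE core lay in 16 of the 32 member promoters (50%) and in 1079 of 27025 RefSeq promoters (3.99%). The GAS core lay in 7 of the 32 (21.9%) and in 2582 of the 27025 (9.55%). Of the 12 members called after LPS in either condition, 8 were in the table and 6 of these held the ISRE core, as did 10 of the 24 promoters of members not called. The sites of members that rose after LPS follow, to show the letters and the place of the core in each, with the core in capitals and 5 bases on each side, written on the strand on which the core reads in this direction.
Ifit1, first site, bases -104 to -95 from the start: gactgGAAAGTGAAActgaa
Ifit1, second site, bases -85 to -76: agtgaGAAACTGAAActgag
Ifitm3, first site, bases 3 to 12: ttcagGAAAAGGAAActtct
Ifitm3, second site, bases 20 to 29: tctgaGAAACCGAAActgcc
Ifi207, bases -41 to -32: ccaggGAAATCGAAAattaa
Ifi211, bases -37 to -28: ccaggGAAATTGAAAgctat
Slfn5, bases -155 to -146: aaagtGAAAAAGAAAaaaaa

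Isg15 carried 3 overlapping ISRE cores between bases -78 and -57, the most of any member in the table. Slfn2, the member with the strongest expression after LPS, had no match to either core in its 300 bases, and Oasl1 had none either. The absence of these letters from this window says nothing of more distant elements. The Isg15 promoter (GRCm38.p6, chr4:156200769-156201068, minus strand) and that of Slfn2 (chr11:83064862-83065161, plus strand) are shown in full for this contrast, 5′ to 3′ along the gene, with ISRE cores in capitals.
Isg15: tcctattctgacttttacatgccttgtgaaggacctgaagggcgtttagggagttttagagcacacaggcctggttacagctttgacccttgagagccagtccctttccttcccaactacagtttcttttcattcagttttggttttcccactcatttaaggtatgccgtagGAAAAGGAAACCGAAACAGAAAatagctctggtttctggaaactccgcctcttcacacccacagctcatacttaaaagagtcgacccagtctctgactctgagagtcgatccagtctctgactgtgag
Slfn2: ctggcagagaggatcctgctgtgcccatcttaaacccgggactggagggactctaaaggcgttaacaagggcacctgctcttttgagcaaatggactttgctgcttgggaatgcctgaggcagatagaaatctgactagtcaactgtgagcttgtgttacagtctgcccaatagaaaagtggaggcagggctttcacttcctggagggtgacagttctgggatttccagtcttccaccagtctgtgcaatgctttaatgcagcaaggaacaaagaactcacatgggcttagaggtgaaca

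Many members are neighbours in the genome (GENCODE M39, GRCm39). Ifit2, Ifit3, Ifit3b and Ifit1 lay within 19:34527932 to 34632174, the p200 genes Ifi209, Ifi207, Ifi204 and Ifi211 within 1:173458380 to 173740612, and Slfn5, Slfn8 and Slfn2 within 11:82842100 to 82961504. Paralogues in such clusters have similar sequences and only uniquely mapped reads were counted, so that Ifit3 and Ifit3b, and the p200 genes, may lose reads that fit more than 1 of them. The strand setting of the counting is not given in the sources used here, and several members overlap a gene on the opposite strand, among them Slfn2, Slfn5 with Slfn5os, Parp9 with Dtx3l, and Ifi35 with Vat1.

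Expressed per length, the members spanned a wide range in resting microglia. Bst2, which tethers budding virus to the cell membrane, was the highest in P200-CTR-PBS mice at a median of 57.4 CPM per kb of exon (52.98 to 63.3). Tor3a, a torsin ATPase of the endoplasmic reticulum, followed at 33.5 CPM per kb (32.02 to 39.2), Ifi35 at 18.31 (15.5 to 20.4) and Slfn2 at 16.05 (11.8 to 20.04). Bst2 and Tor3a did not overlap in these mice, and neither did Tor3a and Ifi35, whereas the ranges of Ifi35 and Slfn2 overlapped. At the other end, the medians of Oas2, Oas3, Oasl1, Ifi211 and Ifi44 were 0 in both P200 PBS groups. Oas3 and Ifi44 were below the filter, with reads in 12 and 8 of the 50 mice and at most 35 and 53 reads in any 1 of them, and were not tested.

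The first question was which members the LPS injection changed in adult microglia, separately in CTR and ELS mice. A gene was called when edgeR's quasi-likelihood test gave a Benjamini-Hochberg adjusted p under 0.05 over all 16696 genes and the log2 fold change exceeded 1 in size. In CTR mice, 6 of the 42 tested members (14.3%) were called higher and 0 lower, where 6.02% of all tested genes were called higher and 3.6% lower. In ELS mice, 11 members (26.2%) were called higher and 0 lower, against 4.69% and 3.17% of all genes. The median log2 fold change of the members was 0.38 in CTR and 0.78 in ELS mice, and that of all genes 0.00 and -0.04. In both conditions 5 members were called (Oasl1, Ifi207, Ifi211, Slfn2 and Slfn5). Parp14 was called in CTR mice, and Ifit1, Isg15, Usp18, Ifitm3, Ifi204 and Rtp4 were called in ELS mice. Every LPS mouse lay above every PBS mouse for 5 members in CTR mice (11.9%, all genes 4.92%) and for 9 members in ELS mice (21.4%, all genes 5.65%).

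**Figure D1:**
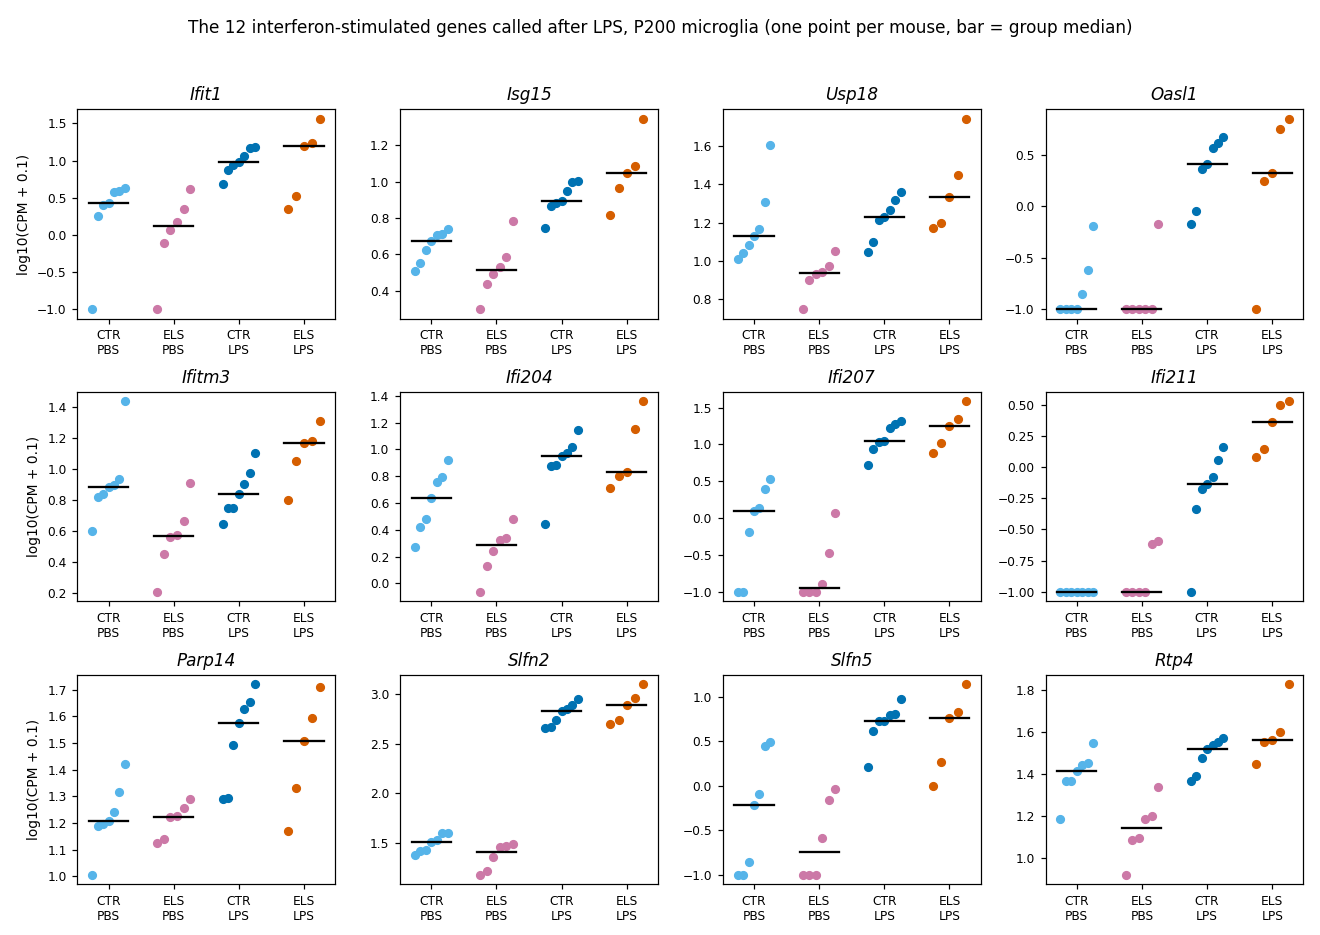
Each panel plots 1 of the 12 members called after LPS in CTR or ELS mice, with the 4 P200 groups on the x axis and log10(CPM + 0.1) on the y axis, 1 point per mouse and a bar at the group median. For Slfn2 the LPS and PBS mice are far apart in both conditions, whereas for Ifitm3 and Usp18 the P200-CTR-PBS and P200-CTR-LPS mice overlap and the ELS groups are further apart.

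The Schlafen genes, which are induced in immune cells and act in cell growth and in the handling of RNA, had 2 of their 3 members called in both conditions. Slfn2, which keeps T cells and monocytes quiescent, lay at 32.0 CPM (23.5 to 39.9) in P200-CTR-PBS mice and at 666 CPM (453 to 888) in P200-CTR-LPS mice. In ELS mice it lay at 25.5 CPM (14.98 to 30.6) after PBS, and the 5 LPS mice had 772, 551, 498, 922 and 1257 CPM. No LPS mouse came near any PBS mouse. The log2 fold change was 4.35 (SE 0.24, adjusted p = 2.09e-20) in CTR mice and 5.08 (SE 0.27, adjusted p = 6.19e-21) in ELS mice. Slfn2 thereby became the member with the highest level per length, at a median of 334 CPM per kb in P200-CTR-LPS mice, ahead of Bst2 at 59.8. Slfn10-ps and Gm20234, which lie on the opposite strand at the Slfn2 locus, had medians of 1.35 and 0.318 CPM in P200-CTR-PBS and of 3.73 and 2.88 CPM in P200-CTR-LPS mice. Their part in the Slfn2 counts was not tested.

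Slfn5, a nuclear member of the family, was near the limit of detection in PBS mice, with medians of 0.499 CPM in CTR (0 to 3.02) and 0.0776 CPM in ELS mice (0 to 0.819). After LPS it had a median of 5.29 CPM (1.53 to 9.40) in CTR mice, where the groups overlapped. The 5 ELS mice had 6.57, 0.878, 1.73, 5.66 and 13.7 CPM, all above the PBS mice. Slfn5 rose by a log2 fold change of 2.46 in CTR (SE 0.87, adjusted p = 0.046) and of 4.36 in ELS mice (SE 1.04, adjusted p = 0.00237). The CTR call was lost when any 1 of 11 of the 14 CTR mice was left out. Slfn5os, on the opposite strand at this locus, had medians of 0 CPM in P200-CTR-PBS and 1.07 CPM in P200-CTR-LPS mice. In ELS mice its medians were 0.0282 CPM after PBS and 0.59 CPM after LPS. Its part in the Slfn5 counts was not tested. Slfn8 gained less, by log2 fold changes of 0.82 (adjusted p = 0.0196) and 0.96 (adjusted p = 0.0168), which are under the fold required for a call. Without the 3 libraries with few genes Slfn8 was called in CTR mice, at a log2 fold change of 1.04.

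The p200 genes encode nuclear and cytosolic proteins that bind DNA, and 3 of the 4 responded. Ifi207 lay at 1.15 CPM (0 to 3.35) in P200-CTR-PBS mice and at 11.16 CPM (5.22 to 20.8) after LPS. In ELS mice it had a median of 0.0141 CPM (0 to 1.09) after PBS, and 17.56, 10.4, 7.48, 21.85 and 38.15 CPM after LPS. The LPS and PBS mice did not overlap in either condition, and Ifi207 rose by 3.36 (SE 0.89, adjusted p = 0.00532) in CTR and by 6.44 (SE 1.15, adjusted p = 3.58e-05) in ELS mice on the log2 scale.

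Ifi211 had no read in any of the 7 P200-CTR-PBS mice and 113 reads over the 7 P200-CTR-LPS mice. With a floor of 3 counts over the PBS group, this is at least 39.9-fold higher after LPS, with an adjusted p of 0.000164. Reads were found in 6 of the 7 LPS mice, with a median of 0.633 CPM and a highest value of 1.34. In ELS mice, 2 of 6 PBS mice had reads (up to 0.155 CPM), and the LPS mice had 2.21, 1.29, 1.11, 3.02 and 3.25 CPM, all above the PBS mice (log2 fold change 5.31, SE 1.25, adjusted p = 0.00215). Placing Ifi211 at its bound left the member median in CTR mice at 0.38. Ifi204, another gene of the cluster, lay at 1.83 CPM (0.767 to 2.95) in P200-ELS-PBS mice and at 6.27, 5.03, 6.68, 14.2 and 22.7 CPM in the ELS mice given LPS. It rose by 2.62 in ELS mice (SE 0.54, adjusted p = 0.000371), and its log2 fold change in CTR mice was 0.93 (SE 0.46, adjusted p = 0.19), from a median of 4.24 CPM (1.78 to 8.26) to 8.83 CPM (2.68 to 13.9). Ifi209 had log2 fold changes of -0.23 (0.02 without the 3 libraries with few genes) and -0.06 and passed in neither.

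In the OAS family, whose enzymes make the 2-5A that activates RNase L, 1 member was called, Oasl1, which lacks that activity and restrains translation of Irf7. Oasl1 was at a median of 0 CPM in both PBS groups, with highest values of 0.545 CPM in CTR and 0.575 CPM in ELS mice. After LPS the CTR mice had a median of 2.46 CPM (0.572 to 4.56), all above the PBS mice, and the ELS mice had 1.99, 0, 1.67, 5.55 and 6.94 CPM, so that the ELS groups overlapped through 1 mouse without reads. Its log2 fold changes were 4.53 (SE 1.18, adjusted p = 0.00455) and 5.05 (SE 1.32, adjusted p = 0.0059). Oas1a, Oas2 and Oasl2 passed in neither condition, and Oas1a was called in ELS mice without the 3 libraries (log2 fold change 1.3, adjusted p = 0.0103). Oas2 was sparse, with 3 reads over the 7 P200-CTR-PBS mice and 37 over the 7 P200-CTR-LPS mice, a ratio of 13.1 with a counting interval of 4.14 to 66.2 (adjusted p = 0.109). That interval leaves out the spread between mice. The P200-CTR-LPS mice ran from 0 to 0.373 CPM per kb of exon, with a median of 0.0101.

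Among the IFIT genes, whose proteins bind viral RNA that lacks host caps, Ifit1 had the largest change. It lay at 2.57 CPM (0 to 4.21) in P200-CTR-PBS and at 9.33 CPM (4.72 to 15.03) in P200-CTR-LPS mice, which did not overlap. The log2 fold change of 1.94 (SE 0.75) had an adjusted p of 0.0722. Ifit1 was called in CTR mice without the 3 libraries (1.72, adjusted p = 0.044), as it was by DESeq2, by limma, by edgeR's likelihood-ratio test and in a fit of the PBS and LPS mice of CTR alone. In ELS mice Ifit1 lay at 1.22 CPM (0 to 4.03) after PBS and at 15.7, 2.11, 3.21, 17.13 and 36.3 CPM after LPS. It rose by 3.25 there (SE 0.87, adjusted p = 0.00726). Ifit2, the IFIT gene with the highest mean log2 CPM over the 50 mice, had log2 fold changes of 0.42 (adjusted p = 0.605) and 1.14 (adjusted p = 0.125), and Ifit3 and Ifit3b passed in neither condition.

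The ISG15 pathway attaches the ubiquitin-like ISG15 to proteins (HERC6 is its ligase in mice) and removes it again with USP18, which also blocks the receptor chain IFNAR2. Isg15 lay at 4.61 CPM (3.14 to 5.39) in P200-CTR-PBS and at 7.70 CPM (5.44 to 9.93) in P200-CTR-LPS mice, without overlap, and its log2 fold change of 0.88 had an adjusted p of 0.0884. In ELS mice it went from 3.15 CPM (1.89 to 5.94) to 12.03, 6.44, 9.15, 11.09 and 22.04 CPM, also without overlap, and rose by 1.83 (SE 0.40, adjusted p = 0.000861). Usp18 in CTR mice lay at 13.4 CPM (10.1 to 40.2) after PBS and at 16.8 CPM (11.07 to 22.8) after LPS, with a log2 fold change of -0.04 (adjusted p = 0.978). The highest PBS value was that of the library with few genes, and without the 3 libraries the log2 fold change was 0.32 (adjusted p = 0.446). In ELS mice Usp18 lay at 8.53 CPM (5.50 to 11.16) after PBS and at 14.7, 15.7, 21.5, 28.0 and 55 CPM after LPS, and rose by 1.67 (SE 0.40, adjusted p = 0.00255). Herc6 had log2 fold changes of 0.34 and 0.09 and did not pass.

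Of the 8 antiviral effectors, 1 was called. Ifitm3, which blocks fusion of virus in endosomes, lay at 7.52 CPM (3.86 to 26.97) after PBS and 6.78 CPM (4.32 to 12.5) after LPS in CTR mice, a log2 fold change of -0.39 (adjusted p = 0.567). The highest PBS value was again that of the library with few genes, and without the 3 libraries the direction turned, at a log2 fold change of 0.12 (adjusted p = 0.838). In ELS mice it lay at 3.60 CPM (1.52 to 8.01) after PBS and at 11.07, 6.20, 14.6, 14.9 and 20.3 CPM after LPS, and rose by 1.74 (SE 0.43, adjusted p = 0.00294). The groups overlapped, since the lowest LPS mouse lay under the highest PBS mouse. Bst2 in ELS mice lay at 55.12 CPM (44.75 to 66.5) after PBS and at 80.3 CPM or more after LPS, with a log2 fold change of 0.76 (adjusted p = 0.00151) that was under the fold required. The interferon-induced GTPases Mx1 and Mx2, the viral RNA synthesis inhibitor Rsad2, its neighbour Cmpk2, the exonuclease Isg20 and Samd9l were not called, with log2 fold changes of 0.09 to 1.38 in CTR and of 0.06 to 2.2 in ELS mice. Rsad2 in ELS mice had the highest of these and was called without the 3 libraries (log2 fold change 2.19, adjusted p = 0.0424).

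The PARP genes and DTX3L encode enzymes that transfer ADP-ribose and a ubiquitin ligase that works with PARP9. Parp14 rose in CTR mice from 16.05 CPM (10.04 to 26.3) to 37.7 CPM (19.5 to 52.6), a log2 fold change of 1.03 (SE 0.26, adjusted p = 0.00369). The call was lost in 5 of 25 alternatives, 4 with a single mouse left out and 1 with the nest as a block, where the log2 fold change was 0.77 (adjusted p = 0.0322). In ELS mice its log2 fold change was 0.97 (SE 0.29, adjusted p = 0.0208), just under the fold required, and the difference between the conditions was -0.07 (95% interval -0.85 to 0.72, adjusted p = 1). Parp9, the member of this group with the highest mean level, had log2 fold changes of 0.03 and 0.43, and Parp12 and Dtx3l passed in neither condition.

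The cytosolic RNA sensors Ifih1 (MDA5) and Dhx58 (LGP2), the kinase PKR (Eif2ak2) and Zbp1 were not called. Ifih1 lay at 38.7 CPM (22.1 to 47.8) in P200-CTR-PBS and at 59.5 CPM (40.4 to 67.03) in P200-CTR-LPS mice, with log2 fold changes of 0.59 (adjusted p = 0.0228) in CTR and 0.55 (adjusted p = 0.0718) in ELS mice. Among the remaining members Rtp4, a chaperone of membrane receptors, lay at 13.8 CPM (8.26 to 21.7) in P200-ELS-PBS mice and at 35.5, 27.9, 36.3, 39.5 and 66.8 CPM in ELS mice given LPS. It rose by 1.53 (SE 0.30, adjusted p = 0.000152). In CTR mice the PBS median was 25.7 CPM (15.23 to 35.06) and the LPS median 32.97 CPM (23.07 to 36.98), with a log2 fold change of 0.29 (adjusted p = 0.546). Tor3a, Ifi27l2a, Ifi35, Ifi47, Phf11b, Phf11d and Xaf1 were not called in either condition.

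**Figure D2:**
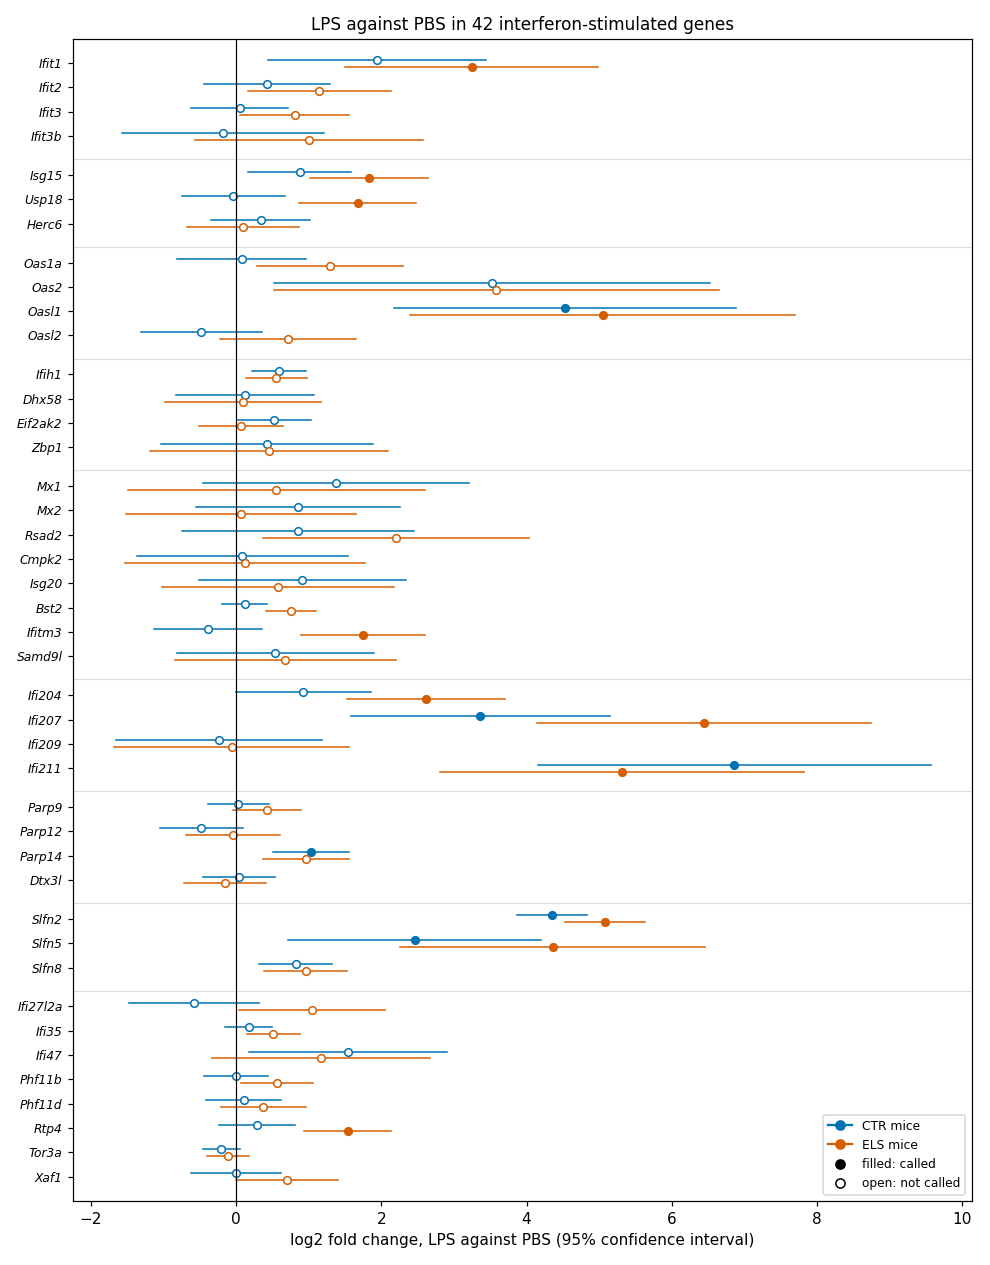
The x axis gives the log2 fold change of LPS against PBS with its 95% confidence interval, and the y axis the 42 tested members grouped by role. CTR mice are in blue and ELS mice in orange, and filled points mark called members (6 in CTR and 11 in ELS mice). All called members lie to the right of 0, and intervals of members with few reads such as Ifi211 and Oas2 are wide.

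The astrocyte markers summed to 299 to 503 CPM in P200-CTR-PBS and 483 to 612 CPM in P200-CTR-LPS mice, and to 313 to 453 CPM and 417 to 584 CPM in ELS mice, nearly all of it from Slc1a3, whereas Aqp4 and Gfap had medians of at most 1.8 CPM in any P200 group. Border-associated macrophage markers summed to 1.8 to 9.62 CPM over all P200 mice. Neutrophil markers summed to at most 0.24 CPM in P200-ELS-PBS and at most 4.83 CPM in P200-ELS-LPS mice, and microglial markers to 74700 to 81100 CPM in all P200 PBS and 63500 to 77400 CPM in all P200 LPS mice. After LPS 2 of the 5 astrocyte markers were called higher in ELS mice, namely Gja1 (median 0 CPM after PBS and 2.07 CPM after LPS) and Gfap (0 and 1.05 CPM), and none was called in CTR mice. Of the 6 border-associated macrophage markers, Cbr2 was called higher in CTR mice (0 and 0.281 CPM), and of the 8 microglial markers Sall1 was called lower in both conditions (log2 fold changes of -1.73 and -2.01). The part of these in the LPS response was not tested.

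A second list of 41 genes covered the rest of the pathway, and 33 of them were tested. After LPS 10 of these genes were called higher in CTR mice with none lower, beside 6.02% and 3.6% of all genes, while ELS mice had 8 higher and 1 lower, beside 4.69% and 3.17%. The interferon ligands were almost absent. Ifnb1 had reads in 10 of the 50 mice, with at most 26 reads in 1 mouse, 4 of 7 P200-CTR-LPS mice and 3 of 5 P200-ELS-LPS mice among them, and was below the filter. Ifna4, Ifna5, Ifne and Ifng had no read in any mouse. A count of 0 at this depth does not show that the transcript was absent earlier or in other cells. The receptor genes Ifnar1 and Ifnar2 had medians between 142 and 220 CPM in all P200 groups, and neither was called after LPS (log2 fold changes of 0.48 and 0.23 in CTR, and of 0.29 and 0.41 in ELS mice).

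Of the ISGF3 genes, Stat2 rose in both conditions. It lay at 13.5 CPM (0.0509 to 26.1) in P200-CTR-PBS and 61.2 CPM (47.9 to 134) in P200-CTR-LPS mice, and the 6 P200-ELS-PBS mice (22.05 to 30.6 CPM) lay below the 5 P200-ELS-LPS mice (53.6 to 104). Its log2 fold changes were 2.16 (SE 0.43, adjusted p = 0.000164) and 1.40 (SE 0.47, adjusted p = 0.0381). For Stat2 and the other pathway genes, values without the 3 libraries with few genes, among them a P200-CTR-PBS library, are not given here. Irf9 rose in ELS mice by 1.04 (SE 0.18, adjusted p = 2.13e-05) and had a log2 fold change of 0.86 (adjusted p = 5.63e-05) in CTR mice, under the fold required. Irf1, a transcription factor gene that is also a target of NF-κB, rose by 2.51 in CTR and 2.82 in ELS mice.

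In the arm that leads from LPS to interferon, the co-receptor Cd14 rose by 2.04 and 2.32, and the adaptor gene Ticam1 (TRIF) rose by 2.13 in CTR mice (log2 fold change 1.53 in ELS mice, adjusted p = 0.0503). Traf3 rose by 2.02 in CTR mice (0.87 in ELS mice, adjusted p = 0.393). Tlr4 fell by 1.32 in ELS mice and had a log2 fold change of -0.96 (adjusted p = 0.00198) in CTR mice. The DNA sensor Cgas rose by 1.61 and 1.47. Among the feedback inhibitors Socs3 had the largest change of the list, by 6.55 in CTR and 6.26 in ELS mice. Ptpn1 rose by 2.02 and 2.05, Ptpn2 by 1.31 and 1.64, and Socs1 by 2.15 in CTR mice (0.96 in ELS mice, adjusted p = 0.318).

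Whether the LPS response of the members differed between CTR and ELS mice was tested with an interaction term. None of the 42 members was called (0% of all genes were), and the lowest adjusted p was 0.252, for Ifitm3. At an unadjusted p under 0.05 stood 8 members (Usp18, Bst2, Ifitm3, Ifi204, Ifi207, Slfn2, Ifi27l2a and Rtp4), beside 980 of the 16696 genes, and each of the 8 had the larger log2 fold change in ELS mice. Without the 3 libraries with few genes 9 members stood there, beside 1255 of 16581 genes. They were Usp18, Oas1a, Bst2, Ifitm3, Ifi204, Ifi207, Slfn2, Phf11b and Rtp4. With all mice in the fit, the differences were as follows. The differences in log2 fold change, ELS minus CTR, were 2.14 for Ifitm3 (95% interval 1.00 to 3.27), 1.71 for Usp18 (0.64 to 2.78, adjusted p = 0.384), 1.25 for Rtp4 (0.45 to 2.04, adjusted p = 0.391) and 1.69 for Ifi204 (0.29 to 3.09, adjusted p = 0.689). For Isg15 the difference was 0.95 (-0.11 to 2.02, adjusted p = 0.884) and for Ifit1 1.31 (-0.89 to 3.51, adjusted p = 0.964). Without the 3 libraries with few genes these were 1.63 for Ifitm3 (adjusted p = 0.205), 1.35 for Usp18 (adjusted p = 0.242), 1.15 for Rtp4 (adjusted p = 0.187) and 1.77 for Ifi204 (adjusted p = 0.472). The calls in only 1 of the conditions are therefore not shown to differ between them. The median difference over the members was 0.42, over all genes -0.06, and 31 of the 42 lay above 0. Without the 3 libraries with few genes it was 0.31, with 29 of 42 above 0. Without mouse 1 of nest 20, of P200-ELS-LPS, it was 0.24, with 25 of 42 above 0, and 5 members stood at an unadjusted p under 0.05.

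That mouse had the highest value of its group in 24 of the 42 members. The median log2 CPM over the 42 members was 4.40 in it and 2.68 to 3.63 in the other 4 P200-ELS-LPS mice. By group this member level was 2.28 ± 0.25 (SD, n = 12) in P9-CTR and 2.28 ± 0.48 (SD, n = 13) in P9-ELS pups. In adult CTR mice it was 2.67 ± 0.32 (SD, n = 7) after PBS and 3.10 ± 0.35 (SD, n = 7) after LPS, and in adult ELS mice 2.13 ± 0.43 (SD, n = 6) and 3.43 ± 0.64 (SD, n = 5). The LPS and PBS mice overlapped in both conditions. In ELS mice, leaving out this mouse left 11 members called after LPS and a member median of 0.68.

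**Figure D3:**
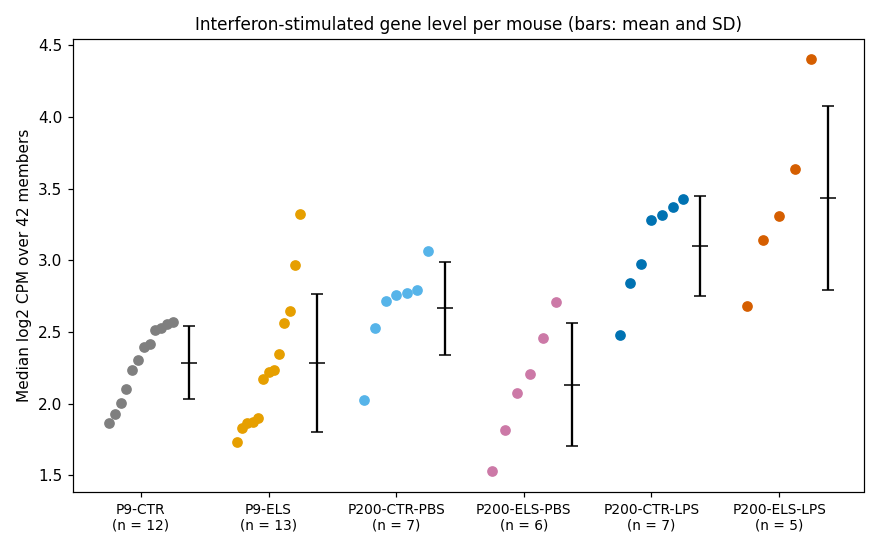
The y axis gives, for each mouse, the median log2 CPM over the 42 tested members, and the x axis the 6 groups, with the mean and SD beside the points. A P200-ELS-LPS mouse of nest 20 is the highest point at 4.40, a P200-ELS-PBS mouse of the same nest the lowest at 1.53, and the LPS and PBS mice overlap in both conditions.

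The second question was whether ELS changed the members at each age and treatment. No member was called at P9, after PBS or after LPS, where 0%, 0.156% and 0% of all genes were called. At P9 the median log2 fold change of ELS against CTR was 0.09, and 5 members stood at an unadjusted p under 0.05 (Ifit3, Isg15, Oasl2, Bst2 and Rtp4, all higher in ELS pups, beside 914 of 16696 genes). Without the 3 libraries with few genes the median was 0.02 and 1 member, Ifit3, stood under it (log2 fold change 0.66, unadjusted p = 0.0124), beside 866 of 16581 genes. Leaving out mouse 2 of nest 19 alone also left 1, and leaving out mouse 2 of nest 55 left 3, both of them P9-ELS pups. Ifit3 lay at 4.68 CPM (1.65 to 7.97) in P9-CTR and at 7.49 CPM (2.84 to 14.8) in P9-ELS pups, a log2 fold change of 0.74 (SE 0.25, adjusted p = 0.863). The ranges overlapped.

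After PBS at P200, 31 of the 42 members had a log2 fold change of ELS against CTR below 0 (7996 of the 16696 genes did), with a median of -0.21. An unadjusted p under 0.05 was reached by 8 members, beside 1622 genes, and 7 of the 8 were lower in ELS mice (Usp18, Bst2, Ifitm3, Ifi204, Ifi207, Ifi27l2a and Rtp4), whereas Ifi211 was higher. The log2 fold change was -1.27 (SE 0.40, adjusted p = 0.152) for Ifitm3, -1.03 (SE 0.37, adjusted p = 0.253) for Usp18 and -0.84 (SE 0.28, adjusted p = 0.194) for Rtp4, and all groups overlapped. Without the 3 libraries with few genes the values were -0.77 (adjusted p = 0.332) for Ifitm3, -0.68 (adjusted p = 0.338) for Usp18 and -0.74 (adjusted p = 0.114) for Rtp4. The member median was then -0.16, with 10 of 42 above 0. An unadjusted p under 0.05 was then reached by 10 members, beside 1658 of 16581 genes. They were Usp18, Oas1a, Bst2, Ifitm3, Ifi204, Ifi207, Slfn5, Rtp4 and Xaf1, all lower in ELS mice, and Ifi211, which was higher. These P200 PBS mice also enter the interaction, and the comparisons are not independent. After LPS the median was 0.28 with 31 of 42 above 0, and 0.05 with 24 of 42 above 0 without mouse 1 of nest 20. At an unadjusted p under 0.05 stood 1 member, beside 798 of 16696 genes, and 0 to 3 members with single mice left out. Without the 3 libraries 4 members stood there, beside 1461 of 16581 genes. These libraries are in neither of these groups but enter the fit, which estimates the spread over all mice. Ifit3b was the 1 member without overlap, with every P200-ELS-LPS mouse (3.62 to 8.16 CPM) above every P200-CTR-LPS mouse (1.47 to 3.28 CPM), at a log2 fold change of 1.08 (SE 0.75, adjusted p = 1). Of all 16696 genes, 9 lay fully above in this way and 17 fully below.

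**Figure D4:**
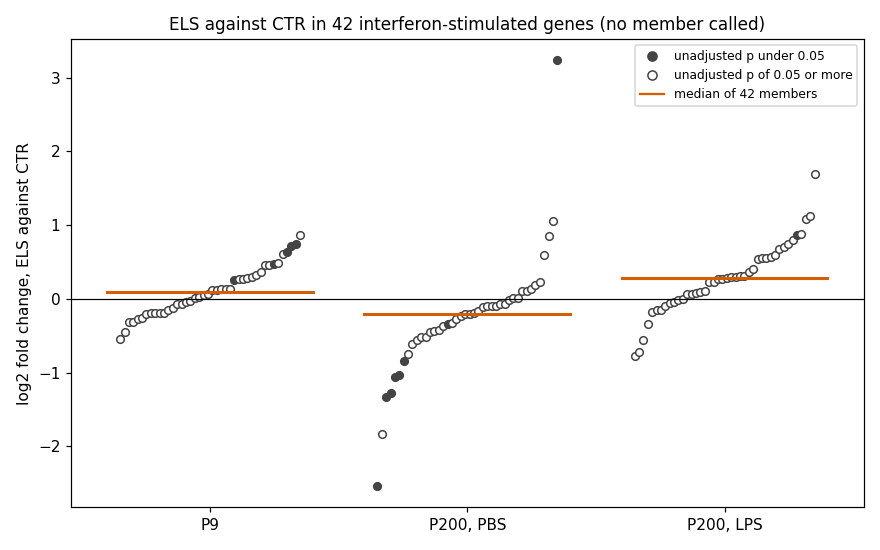
The y axis gives the log2 fold change of ELS against CTR for each of the 42 members, in order of size within each comparison on the x axis (P9, P200 after PBS, P200 after LPS). Filled points have an unadjusted p under 0.05 (5, 8 and 1 members), no member was called, and the lines mark the member medians of 0.09, -0.21 and 0.28.

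The third question was how the members changed between P9 and P200 (PBS). Markers of other cells differed between these ages. Border-associated macrophage markers summed to 470 to 918 CPM at P9 and to 2.03 to 9.62 CPM in P200 PBS mice. For neuron markers the sums were 10.4 to 66.7 and 2.54 to 11.7 CPM. Nearly all of the macrophage sum at P9 came from Mrc1, whose median was 700 CPM for CTR pups and 729 for ELS pups. The other macrophage markers had medians of at most 5.06 CPM in pups. Of the 6 macrophage markers, 6 were called lower at P200 in CTR and 5 in ELS mice. Whether the Mrc1 reads came from other cells was not tested. The part of other cells in the differences was not tested. In CTR mice 8 members (19%) were called higher and 3 (7.14%) lower at P200, beside 7.98% and 18.5% of all genes. In ELS mice 3 (7.14%) were called higher and 7 (16.7%) lower, beside 8.68% and 17.5%. Ifi209 and Phf11d were called higher, and Oas2 and Ifi27l2a lower, in both conditions. The share of members called in ELS mice was close to that of all genes. With limma, which moved the median of all genes in CTR mice from -0.09 to -0.22, 7 members were called higher and 7 lower in CTR and 6 and 6 in ELS mice.

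Phf11d, a PHD finger protein, went from 6.93 CPM (4.57 to 10.4) in P9-CTR to 20.9 CPM (13.2 to 26.5) in P200-CTR-PBS mice and from 5.75 CPM (0.717 to 8.37) to 16.96 CPM (12.9 to 21.9) in ELS mice, without overlap in either. It rose by 1.46 (SE 0.23, adjusted p = 5.57e-07) and 1.61 (SE 0.23, adjusted p = 1.03e-07). Ifi209 rose by 2.21 (SE 0.62, adjusted p = 0.0033) and 1.95 (SE 0.63, adjusted p = 0.0104), from medians of 1.52 and 0.476 CPM to 5.72 and 5.201 CPM. Usp18 in CTR mice went from 4.42 CPM (3.04 to 6.22) to 13.4 CPM (10.1 to 40.2), without overlap, and rose by 1.97 (SE 0.31, adjusted p = 7.13e-07). In ELS mice its log2 fold change was 1.00 (SE 0.32, adjusted p = 0.00918), at and not above the fold required.

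The call of Ifi209 in ELS mice was lost in a fit of the compared groups alone. Ifit3 (log2 fold change 1.24), Ifit3b (1.53), Isg15 (1.09), Ifih1 (1.05) and Phf11b (1.15) were also called higher in CTR mice, and Herc6 (1.04) in ELS mice. Isg15 lay at 1.87 CPM (1.34 to 2.96) in P9-CTR and at 4.61 CPM (3.14 to 5.39) in P200-CTR-PBS mice, without overlap. Herc6 in CTR mice had a log2 fold change of 0.95 (adjusted p = 0.00787), with 0.407 CPM in the P200 library with few genes, and of 1.17 without the 3 libraries (adjusted p = 6.86e-08). In ELS mice without them it was 0.99 and not called. Without the 3 libraries Isg20 was called higher in both conditions (log2 fold changes of 1.6 and 1.56, where 1.38 and 1.28 had not passed) and Eif2ak2 lower in CTR mice (-1.11, where -0.97 was under the fold required). Leaving out single mice ended the call of Ifit3b in 8 cases (P9-CTR mice 1 and 2 of nest 15, 2 of nest 17 and 1 of nest 52, and P200-CTR-PBS mice 2 of nest 5, 1 of nest 8, and 1 and 2 of nest 18), and that of Ifih1 without mouse 2 of nest 5 or mouse 1 of nest 8.

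Ifi27l2a, a small mitochondrial membrane protein gene, fell in both conditions. It lay at 9.302 CPM (5.84 to 13.9) in P9-CTR and 1.91 CPM (0.285 to 7.28) in P200-CTR-PBS mice, and at 10.3 CPM (7.55 to 27.8) in P9-ELS and 1.14 CPM (0.442 to 2.40) in P200-ELS-PBS mice, where the ages did not overlap. The log2 fold changes were -1.89 (SE 0.42, adjusted p = 0.000202) and -3.28 (SE 0.48, adjusted p = 1.72e-07). Ifitm3 fell by 1.47 in ELS mice (SE 0.37, adjusted p = 0.00107), from 8.301 CPM (5.23 to 33.3) to 3.60 CPM (1.52 to 8.01). Oas1a fell by 1.27 in ELS mice (SE 0.43, adjusted p = 0.0155), from 3.74 CPM (2.15 to 8.59) to 1.73 CPM (0.605 to 2.92), and the call was lost without P200-ELS-PBS mouse 1 of nest 4. The remaining decreases were of genes without reads in several mice. Oas2 had 184 reads over the P9-CTR mice and 3 over the P200-CTR-PBS mice. The ratio was 33.7, with a counting interval of 11.4 to 165 that leaves out the spread between mice. Ifi211 had 56 reads in P9-CTR mice and 0 in P200-CTR-PBS mice, at least 10.3-fold lower with the floor of 3 counts. In ELS mice Oas2 fell by 3.46, Oasl1 by 2.78, Ifi207 by 2.98 and Slfn5 by 2.27, with adjusted p between 0.00933 and 0.0409. Of these, Ifi207 lost its call in a fit of the compared groups alone, and the calls of Oas2, Oasl1 and Slfn5 were lost in 11, 12 and 6 of 29 alternatives, most of them single mice left out.

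The members called in only 1 condition over age were not shown to differ between conditions, since 0 members were called in the interaction of age and condition (0.0299% of all genes were), with a lowest adjusted p of 0.213 for Rtp4 and 12 members at an unadjusted p under 0.05, beside 1712 genes. Without the 3 libraries with few genes 6 members stood under it (Bst2, Ifi204, Ifi207, Ifi211, Phf11b and Rtp4), beside 1467 of 16581 genes, and without P200-ELS-PBS mouse 1 of nest 4 there were 7. For Rtp4 the difference in log2 fold change, ELS minus CTR, was -1.31 (95% interval -1.99 to -0.63), from a log2 fold change of 0.86 (adjusted p = 0.00189) in CTR mice. For Ifitm3 it was -1.64 (-2.62 to -0.67, adjusted p = 0.258), and without the 3 libraries -0.76 (adjusted p = 0.563).

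**Figure D5:**
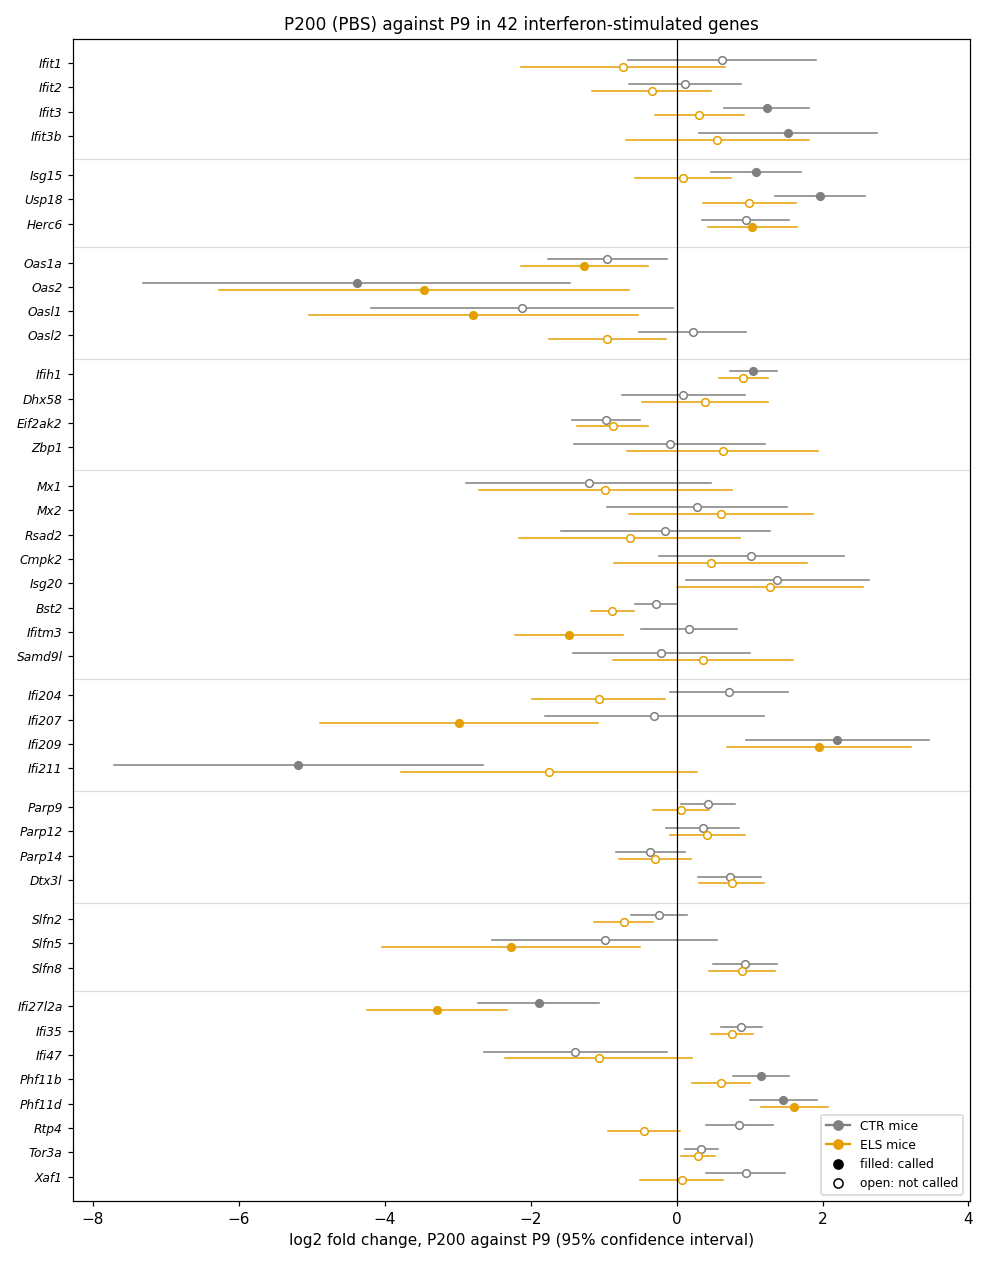
The x axis gives the log2 fold change of P200 (PBS) against P9 with its 95% confidence interval, and the y axis the 42 tested members grouped by role, with CTR mice in grey and ELS mice in orange. Filled points mark called members (8 higher and 3 lower in CTR, 3 higher and 7 lower in ELS mice), and the decreases of Oas2, Ifi211, Oasl1 and Ifi207 have wide intervals.

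Over the rest of the pathway, 7 of the 33 genes tested were called higher and 0 lower between P9 and P200 in CTR mice, beside 7.98% and 18.5% of all genes, and 8 and 0 in ELS mice, beside 8.68% and 17.5%. The nucleic acid sensing genes Tlr3, Sting1 and Rigi rose by 2.27, 1.72 and 1.62 in CTR and by 2.1, 1.49 and 1.44 in ELS mice, and Tlr4, Cd14 and Irf5 were called higher in both as well. Ly96 was called in CTR mice, and Socs1 and Socs3 in ELS mice.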

How the data were processed

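Per the labels and the study's methods, RNA of sorted microglia was made into libraries with a low-input poly-A kit, reads were demultiplexed with bcl2fastq 2.20, trimmed with cutadapt 2.10, mapped to GRCm39 with STAR, and uniquely mapped exonic reads were counted per gene with HTSeq 0.11.0. The deposited values are raw counts per gene, 1 file per mouse. The annotation release is not given in the sources used here.

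From these counts, genes that reached 1 CPM in over 2 of the 50 libraries were kept, scaled by TMM and fitted with 6 group means in edgeR 4.0.16 (quasi-likelihood test, two-sided, in R 4.3.3). Calls required a Benjamini-Hochberg adjusted p below 0.05 together with a log2 fold change beyond 1 in size. Printed CPM use the same scaling. SE and 95% intervals come from the test statistic, and counting intervals and floors cover counting error only. Replicates are separate mice. The fit was tested on simulated counts. The members, roles and gene lists were chosen with earlier results of these data known. Named genes were the highest member of each role, the 3 largest called changes per comparison in each direction, members called in 1 condition, members below the filter, and the called pathway genes with Ifnb1, Ifnar1, Ifnar2, Stat2 and Irf9 (1 further pathway gene is not reported here); others were named after their values were seen. Library totals were 5152838 to 42231258 reads. The strand setting is not stated. Alternatives included DESeq2 1.42.0, limma 3.58.1 and leaving out each mouse. Exon lengths came from GENCODE M39, promoters from RefSeq (GRCm38.p6). Coordinates of the 2 builds were not converted.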

Additional observations from a re-analysis of the deposited data

Results flagged for a closer look

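Values that stood apart from the rest of their group (Dixon's test at 95%, 4 P200 groups, log2 CPM) were found in 13 of 92 groups of values checked, where chance gives about 1 in 20. Of the 13, 6 were of P200-CTR-PBS mouse 1 of nest 1, the library with the fewest detected genes at P200. In it Ifit1, Ifit3b and Oas1a were at -3.42, the value of a gene without reads, and Herc6 was at -0.999 where the next mouse had 4.23. Phf11b was at 3.11 (next 3.99) and Ifitm3 was high at 4.76 (next 3.10). The next 3 were single mice with reads in a group otherwise without them or nearly so, namely Oasl1 at -0.582 in P200-ELS-PBS mouse 2 of nest 17, Oas2 at -1.71 in P200-CTR-PBS mouse 1 of nest 8 and Oas2 at -1.27 in P200-ELS-PBS mouse 1 of nest 4. Ifi211 was lowest in P200-CTR-LPS mouse 3 of nest 18, at -3.42. Ifi204 was lowest in P200-CTR-LPS mouse 3 of nest 8, at 1.47 (next 2.91), Ifi209 was lowest in P200-ELS-LPS mouse 2 of nest 4, at -0.833 (next 2.1), and Herc6 was highest in P200-ELS-PBS mouse 2 of nest 17, at 4.86 (next 4.28).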

How the results depend on the processing

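The number of members called stayed within 1.5 times the reported one under most alternatives. In the interaction of LPS and condition, the likelihood-ratio test of edgeR called 1 member (Ifitm3) where 0 were called otherwise. Without the fold threshold, 19 members passed between P9 and P200 in CTR and 21 in ELS mice, beside 7356 and 7045 of all 16696 genes. With only the groups compared in the fit, 5 members were called in ELS mice over age, and the reason was not tested. Leaving out each mouse in turn gave 4 to 7 members called after LPS in CTR mice (6 reported), 11 to 13 in ELS mice, 10 to 14 over age in CTR and 7 to 12 in ELS mice, and 0 in every comparison of ELS with CTR and both interactions. The 4 members Oasl1, Ifi207, Ifi211 and Slfn2 were called after LPS in CTR mice each time a mouse was left out, whereas Parp14 was lost without P200-CTR-LPS mice 2 or 3 of nest 1 or 2 of nest 8, or P200-CTR-PBS mouse 2 of nest 5. Slfn5 was lost without P200-CTR-PBS mice 1 of nest 1, 1 or 2 of nest 5, 1 of nest 15 or 2 of nest 18, or P200-CTR-LPS mice 2 or 3 of nest 1, 3 of nest 5, 2 or 3 of nest 8 or 2 of nest 15. All 11 members called in ELS mice stayed called in all 22 alternatives. The 10 members called over age in ELS mice fell to 7 without P200-ELS-PBS mice 1 or 2 of nest 17. Oas2, Oasl1 and Slfn5 also lost their calls there without P200-ELS-PBS mouse 1 of nest 11 or mouse 2 of nest 20. With the 3 libraries of few detected genes left out, an alternative chosen after seeing the data, 8 and 13 members were called after LPS, and 14 and 10 over age.

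At P200 the PBS and LPS mice of a nest did not deviate together from their group means over all tested genes (correlations from -0.0411 to 0.0841 in 10 nests, 0 above 0.1). Nest numbers were therefore not taken as pairs. Pups of a nest at P9, and nest-mates within the same group, were not compared in this way. With the nest number as a block, 4 members were called after LPS in CTR mice (Parp14 and Slfn5 were lost), 11 in ELS mice and 0 in the interaction. No call changed direction in the alternatives run.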
